A study of Homo sapiens with 22 samples.

Results

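The moderate A549-biased reporters were 1570 tags of a pooled reporter assay, out of 211385 tags with at least 100 reads in both input libraries and 238017 tags listed in any library. Each tag is a short sequence in the transcript of a luciferase plasmid, so that the reads of the tag measure the RNA made from that plasmid. The pool was transfected into A549 cells, which derive from a human lung adenocarcinoma, and into H520 cells, which derive from a squamous cell carcinoma of the human lung. Cells received 10 µM benzo(a)pyrene (BaP), for 18 h in A549 and 42 h in H520, or DMSO, the vehicle. The 20 RNA libraries were 5 of A549 with BaP, 5 of A549 with DMSO, 5 of H520 with BaP and 5 of H520 with DMSO. Within a line, both treatments carry the same transfection numbers. The labels do not say whether libraries with the same number came from the same transfection. One input library of plasmid DNA was sequenced for A549 and one for H520. The files count tags and no cellular genes, so the identity of the lines rests on the labels.

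Membership followed from the measured values. Activity was log2 of RNA TPM (reads of a tag scaled to the same library total) plus 0.5 over H520 input TPM plus 0.5, less the library median over the 211385 tags, so that 0 is the typical tag. The value a was the mean activity over the 10 A549 libraries and h the mean over the 10 H520 libraries. A member had a from 1 up to but not including 3, and a minus h of at least 1. Of the members, 1301 had h under 0.5, close to the pool level in H520, and 269 had h of 0.5 or more. The activities, and all that follows from a, h and their difference, are therefore a description and carry no test.

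In assays of this kind a DNA fragment next to a promoter raises or lowers the output of the reporter, and the tag lets many fragments be read in one pool. A fragment that works as an enhancer does so through transcription factors that bind it, and lines of different origin hold different sets of such factors. BaP, a component of tobacco smoke, is a ligand of the aryl hydrocarbon receptor, a factor that enters the nucleus when bound and acts at xenobiotic response elements. No table that pairs tags with fragments or alleles was used here, so members are given by tag, and several tags may mark the same fragment.

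The tags below show the ends and the middle of both sets, as deposited, 5′ to 3′. Of the 15 bases, 12 vary and the last 3 are ggc in all tags. L1 to L3 had the largest a minus h among members with h under 0.5 and at least 500 reads in both inputs, and L4 and L5 lay closest to the medians of that set. R1 to R5 were chosen in the same way among members with h of 0.5 or more. S1 and S2 had the largest and smallest spread over the A549 libraries among members with at least 500 reads in both inputs.
L1: ttgaaccttataggc
L2: ggcgctaaattgggc
L3: tgaatcgcctatggc
L4: agcaaccatagtggc
L5: gtttaataattcggc
R1: cataaccgccagggc
R2: tagctaagtaatggc
R3: gtagcatatgcgggc
R4: cccgatgcccaaggc
R5: acgcttagtttcggc
S1: tagacgagaggtggc
S2: ggctaagccataggc
Tags are synthetic, so they have no position in a genome.

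RNA libraries held 177592385 to 371435558 reads, the A549 input 333491936 and the H520 input 265826055. The members had a median of 1524.5 reads in the A549 input and 1058.5 in the H520 input, where the eligible tags had 1284 and 1031. The 22 library totals all differed. The protocol names no molecular identifiers, and PCR copies of a molecule may be counted more than once.

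The members as a group were a few times above the pool in A549 and near it in H520. The median a was 1.69, which is 3.23 times the library median, and the median h was 0.13, or 1.09 times. The difference had a median of 1.48, with quartiles of 1.20 and 1.86. Most members were modest: 1034 had a under 2, and 290 had a difference of 2 or more. Members with h under 0.5 had a median a of 1.52 and a median h of 0.07, and 467 of these 1301 tags lay below the pool level in H520. Members with h of 0.5 or more were stronger in both lines, with medians of 2.45 and 0.68. Libraries were made from whole cultures, so a reporter read in fewer cells and one with less RNA per cell cannot be told apart.

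At the lower limit of a, the member attctacgaagcggc had a of 1.0001, and agatactaaataggc, at 0.9990, stayed outside. At the upper limit the last member was agtttagctcgtggc with 2.9968, and actcctcgtaagggc was outside with 3.0006. At the limit of the difference, ccgttacgatagggc was inside with 1.0024, and aacttgcgtaaaggc was outside with 0.9999. The values on both sides of each limit differed by far less than the spread between libraries. These tags were picked as the nearest on either side, so their small gaps do not show whether the data break at a limit.

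The mean activity of the members moved from one A549 library to the next and hardly at all between H520 libraries. In A549 with BaP it was 1.29, 1.47, 1.9995, 2.04 and 2.21 in transfections 1 to 5, and in A549 with DMSO it was 1.86, 1.36, 1.48, 1.91 and 2.06. In H520 with BaP it was 0.15, 0.19, 0.22, 0.23 and 0.17, and in H520 with DMSO 0.16, 0.20, 0.22, 0.24 and 0.18. Every A549 library thus lay above every H520 library, while the A549 libraries with BaP and with DMSO overlapped. BaP transfections 1 and 2 and DMSO transfections 2 and 3 were the 4 lowest in A549, so the low libraries belonged to both treatments and did not share a number except for number 2.

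Single members gave the same picture. In the A549 libraries between 1021 (BaP 1) and 1553 (DMSO 4) of the 1570 members had an activity of at least 1, and none fell below 0. In the H520 libraries 9 (BaP 1) to 74 (DMSO 4) members reached 1, and 442 to 538 lay below 0. For 1560 members the lowest A549 library was above the highest H520 library, where 15.6% of all eligible tags had that order. The rule used this contrast, so nothing is read from that count. Together the members took 2.67% ± 0.67 of reads in A549 with BaP, 2.50% ± 0.48 in A549 with DMSO, 0.812% ± 0.024 in H520 with BaP and 0.818% ± 0.023 in H520 with DMSO (SD, n = 5 each).

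The spread between A549 libraries parted the members into 2 kinds. The SD of activity over the 10 A549 libraries had a first peak of 217 members between 0.15 and 0.20, a trough of 45 members between 0.25 and 0.30, and a second, broader peak with 150 members between 0.55 and 0.60. In what follows, 484 members with an SD under 0.25 are called steady and 1041 with an SD of 0.30 or more variable. These limits were set after the values were seen. The rule for membership uses the mean over libraries and not their spread. Of all eligible tags 0.985% had an SD of 0.30 or more, against 66.3% of the members, and the median SD was 0.43 in members and 0.10 in all eligible tags. In H520 the median SD was 0.11 in members and 0.10 in all eligible tags.

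The steady members were high in A549 in each library and at the pool level in H520. Their mean activity in A549 was 1.65, 1.68, 1.52, 1.61 and 1.44 with BaP and 1.68, 1.62, 1.57, 1.65 and 1.52 with DMSO. In H520 it lay between -0.002 and 0.013 with BaP and between 0.008 and 0.022 with DMSO. Of the 484 steady members, 469 had h under 0.5 and 15 had h of 0.5 or more. L1, L2 and L3, with the widest line difference among members with h under 0.5 and at least 500 reads in both inputs, were all steady. Without that read minimum, a variable member had a difference of 2.92, between those of L1 and L2.

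Most variable members were highest in the same A549 library, and a smaller majority were lowest in the same one. Their mean activity was 1.14, 1.38, 2.25, 2.27 and 2.60 in A549 with BaP and 1.97, 1.25, 1.45, 2.06 and 2.34 in A549 with DMSO. BaP 5 was the highest library for 1020 of the 1041. BaP 1 was the lowest for 799, DMSO 2 for 138, DMSO 3 for 82 and BaP 2 for 20. In H520 they stood slightly above the pool, at 0.23, 0.28, 0.33, 0.34 and 0.25 with BaP and 0.24, 0.29, 0.31, 0.36 and 0.27 with DMSO. The class held 787 members with h under 0.5 and 254 of the 269 with h of 0.5 or more.

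The share of variable members was larger at higher activity in H520, up to an h of 1. It was 39.1% of the 69 members with h below -0.25, 43.5% of the 398 with h from -0.25 to 0, 60.0% of the 522 from 0 to 0.25 and 87.8% of the 312 from 0.25 to 0.5. From 0.5 to 0.75 it was 92.9% of 170, from 0.75 to 1 it was 100% of 69, and above that 90.0% of 30. The median a was 1.49 for h below -0.25 and 1.30 for h from -0.25 to 0. From there it rose with each range of h, to 2.83 in the highest. The rule ties a to h, so these shares do not separate activity in H520 from the level in A549. They are shares of tags chosen by a and h, given without a test.

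Other reporters of the pool showed which of them the variable members ran beside. The 73 tags with a of at least 5 and h of at least 3, the strongest in both lines, had mean activities of 6.01, 6.30, 7.26, 7.65 and 7.99 in A549 with BaP and 7.19, 6.16, 6.08, 7.30 and 7.73 in A549 with DMSO. The same 6 libraries were high in these tags and in the variable members. The 99 tags with a of at least 3 and h under 0.5 had 5.29, 5.40, 5.10, 5.35 and 4.96 with BaP. With DMSO they had 5.47, 5.13, 5.07, 5.35 and 5.15. The SD of these means was 0.19 with BaP and 0.17 with DMSO (n = 5 each). It was 0.10 and 0.06 in steady members, and 0.63 and 0.45 in variable ones. An SD of 0.30 or more was found in 73 of the 73 tags, in 4 of the 99, and in 136 of the 1514 moderate tags whose lines differed by less than 1. It was also found in 99.7% of the 382 tags with a of at least 3, h of at least 0.5 and a difference of at least 1, a set that overlaps the 73. The 73 strongest tags took 5.03% ± 2.46 of reads in A549 with BaP and 4.49% ± 1.94 in A549 with DMSO (SD, n = 5 each). What part the strongest tags have in the levels of the variable members was not tested.

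Tag L1 shows a steady member. It had 32.3, 36.2, 26.8, 32.0 and 22.5 TPM in A549 with BaP and 32.7, 30.3, 32.0, 33.0 and 26.6 TPM in A549 with DMSO, against 6.97 TPM in the A549 input. In H520 it had 3.53, 3.36, 3.41, 3.71 and 3.86 TPM with BaP and 3.69, 3.31, 3.29, 3.24 and 3.74 TPM with DMSO, against 4.74 TPM in the H520 input. Each A549 library was several times its input and each H520 library somewhat below it, which gave a of 2.77 and h of -0.30. L2 had a of 2.69 and h of -0.18, and L3 had 2.77 and -0.07.

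Tag R1 shows a variable one. Its TPM in A549 with BaP were 20.7, 25.1, 51.6, 50.1 and 70.8, and in A549 with DMSO 44.0, 22.3, 22.9, 41.3 and 56.4. In H520 they were 6.54, 6.64, 9.02, 7.48 and 6.16 with BaP and 5.74, 7.30, 7.89, 8.79 and 6.73 with DMSO. The A549 libraries ranged more than 3-fold and all stood above the H520 libraries, with low values in the same 4 libraries as for the class as a whole. R1 had a of 2.996 and h of 0.56, R2 had 2.92 and 0.54, and R3 had 2.89 and 0.52.

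The tags nearest to the medians were variable in both sets. L4 had 7.46, 9.02, 12.4, 11.8 and 14.6 TPM in A549 with BaP and 10.4, 7.81, 8.33, 10.2 and 12.6 TPM in A549 with DMSO. In H520 it stayed between 3.23 and 4.18 TPM with BaP and between 3.31 and 4.14 TPM with DMSO. R4 averaged 33.1 ± 15.1 TPM in A549 with BaP, 29.7 ± 10.2 TPM in A549 with DMSO, 9.06 ± 0.84 TPM in H520 with BaP and 9.29 ± 1.31 TPM in H520 with DMSO (SD, n = 5 each). L5 had a of 1.51 and h of 0.08, and R5 had 2.42 and 0.69.

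S1 varied in another order. It had 2.64, 3.94, 11.1, 11.6 and 3.42 TPM in A549 with BaP and 3.19, 2.89, 4.38, 10.3 and 5.03 TPM in A549 with DMSO. BaP 3, BaP 4 and DMSO 4 were high, and BaP 5, the top library of nearly all variable members, was among the low ones. Its level in H520 was 1.80 ± 0.19 TPM with BaP and 1.67 ± 0.23 TPM with DMSO (SD, n = 5 each). S2, with the smallest spread under the same read minimum, had 3.84 ± 0.35 TPM in A549 with BaP and 3.95 ± 0.29 TPM in A549 with DMSO, against 1.74 ± 0.34 TPM in H520 with BaP and 1.97 ± 0.17 TPM in H520 with DMSO (SD, n = 5 each).

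The members were also more abundant in the A549 input than in the H520 input. The rule divides by the H520 input, so it used part of this measure, which is given as a description. The ratio of A549 input to H520 input TPM had a median of 1.16 in members and 0.993 in all eligible tags, and the A549 input was the higher one for 76.1% of members and 48.7% of all eligible tags. The 1514 moderate tags with a difference under 1 were close to the members, with a median ratio of 1.11 and the A549 input higher for 66.8%. The median ratio was 1.27 in steady members, 1.14 in variable ones, 1.90 in the 99 tags with a of at least 3 and h under 0.5, and 6.46 in the 73 strongest tags. A low H520 input value raises both a and h of a tag, since it is the denominator of both, and cancels from their difference. That difference is therefore not corrected for a tag that is more abundant in the A549 input. Each line has 1 input library, so an input difference has no replicate check. The largest ratio among members with at least 500 reads in both inputs was 2.70, in gtagaaacgactggc, with 6.02 TPM in the A549 input and 2.23 TPM in the H520 input. The smallest was 0.606, in atatccaaacgcggc, with 2.55 and 4.21 TPM.

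With each line divided by its own input, 1362 tags met the rule, and 1145 were shared with the members, which is 84.1% of the first list and 72.9% of the second. Steady members dropped out more often: 259 of 484 still met the rule, against 873 of 1041 variable ones. By activity in H520, 254 of the 269 members with h of 0.5 or more and 891 of the 1301 with h under 0.5 did. On that denominator the median a was 1.27 in steady and 1.70 in variable members. Applied to the BaP libraries alone the rule found 1616 tags and applied to the DMSO libraries alone 1528, of which 1421 were shared, 87.9% and 93.0% of the lists. Both treatments use the same input reads.

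Taken as a whole, the members had tag sequences that resembled those of the pool, while the sets above and below an h of 0.5 differed in GC content. The 12 variable bases had a mean GC content of 47.8% in members and 47.7% in all eligible tags, with 2 to 10 G or C bases in both. Members with h of 0.5 or more had 51.3% and those with h under 0.5 had 47.1%. Tags with 4 or fewer G or C bases made up 12.3% of the former, 22.5% of the latter and 21.3% of all eligible tags. Tags with 8 or more made up 16.7%, 10.8% and 12.0%. Across the 12 positions and 4 bases, counted from 1 at the 5′ end, the widest gap was G at position 2, at 27.8% of members and 25.1% of eligible tags.

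Motifs in the tags were rare. TGACTCA, the site of AP-1, was searched on both strands of the 12 bases and found in 3 members (0.191%) and 95 eligible tags (0.0449%). ATTAAA, a variant polyadenylation signal, was searched on the tag strand and found in 2 members (0.127%) and 540 eligible tags (0.255%). AATAAA, the common form of that signal, was found in 0 tags. GCGTG, the core of the xenobiotic response element, was found on neither strand within the 12 bases of any eligible tag. Over all 15 bases, where its last base falls on the constant ggc, 8 members (0.510%) and 1201 eligible tags (0.568%) held it. ATTAAA and AATAAA share their last letters, and the others were searched apart. A tag lies in the transcript, and a match is only a match of letters.

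Tags that differ by 1 base are given as a description. Their fragments were not known, so they cannot show whether a level belonged to the tag or to the fragment. Of the members, 97.1% had an eligible tag at 1 mismatch, as did 97.9% of all eligible tags. Such a neighbour with a of at least 5 was present for 21 members (1.34%), among them 5 steady and 15 variable ones, and for 0.365% of all eligible tags. The other 1549 members had no such neighbour among the eligible tags, and no cause is read from these counts. Among the members themselves 21 pairs differed at 1 base, and of the 19 pairs with both tags in a class, 14 had the same class. These were 10 pairs with both tags steady and 4 with both variable. A member at 1 mismatch was present for 5.37% of steady and 1.25% of variable members, against 2.67% of all eligible tags. The rate to be had from the class sizes alone was not worked out, so nothing is read from the 14. The 3 pairs with the most reads in the H520 input are printed with the differing base in capitals.
Pair 1: gggatacgtccAggc and gggatacgtccGggc
Pair 2: Acgcgtacggttggc and Ccgcgtacggttggc
Pair 3: Cgtacgagtccgggc and Ggtacgagtccgggc
In the first pair a was 1.01 and 2.12, and in the second 1.65 and 1.32. In the third pair the first tag was steady, with 15.03 ± 0.90 TPM in A549 with BaP and 15.23 ± 0.36 TPM in A549 with DMSO. The other tag of that pair was variable, with 42.9 ± 16.1 TPM with BaP and 37.9 ± 11.2 TPM with DMSO (SD, n = 5 each). The tags of the third pair thus differed in level and in spread, while the tags of the first were both steady and those of the second both variable.

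The rule averages over both treatments and does not use the difference between BaP and DMSO within a line, which could be tested. Where the treatments spread unequally, membership can still depend on that difference. The rule found 1616 tags in the BaP libraries alone and 1528 in the DMSO libraries alone. No member passed the test of BaP in A549, and neither did any other tag. By edgeR's quasi-likelihood test over 223556 tags, 0 of the 1570 members and 0% of all tags had an adjusted p under 0.05. All members passed the filter on low counts. At an unadjusted p under 0.05 there were 8 members (0.510%), against 2.59% of all tags. Of these, 2 were higher with BaP, where 1.17% of all tags were, and 6 were lower, where 1.42% were. All 8 were steady members, a class defined by low spread over the libraries of this test. DESeq2 called 0 members and 0% of all tags, with 8 members and 2.85% of all tags at an unadjusted p under 0.05.

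The precision of that comparison differed between the kinds of member, and a missing call does not show that a tag was unchanged. The median standard error of the log2 fold change was 0.10 in steady members and 0.36 in variable ones. The classes were cut by the SD over these same libraries, so this gap follows from their definition. A response to BaP would also raise that SD. The fold changes of steady members had a median of -0.03 and 145 of 484 were positive. In variable members the median was 0.17 and 1038 of 1041 were positive, where 49.4% of all tags were. BaP 5 was the highest library for most of these tags, so they are not independent of each other, and without BaP 5 the number of positive ones was 276. Their mean activity was 1.93 ± 0.63 with BaP and 1.82 ± 0.45 with DMSO (SD, n = 5 each), a difference of 0.11 that is smaller than the spread in either group.

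Single transfections decided the sign of that difference. Between same-numbered libraries, BaP minus DMSO was -0.82, 0.13, 0.80, 0.21 and 0.25 in variable members for transfections 1 to 5, so number 1 was opposite to number 3 with almost the same size. In the 73 strongest tags the same differences were -1.18, 0.14, 1.19, 0.34 and 0.26. In steady members they were -0.03, 0.07, -0.05, -0.04 and -0.08. Over all members the median log2 fold change of 0.14 became 0.28 without BaP 1 and -0.02 without BaP 5.

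The member with the smallest p in A549 was aagcaaccggctggc. It had 1.67, 1.51, 1.25, 1.44 and 1.45 TPM with BaP and 1.84, 1.98, 2.22, 1.67 and 1.49 TPM with DMSO. The groups overlapped, since the lowest DMSO library was below the highest BaP library. Its log2 fold change was -0.31 with a standard error of 0.10, an unadjusted p of 0.0051 and an adjusted p of 1 by edgeR. It had 606 reads in the A549 input and 159 in the H520 input.

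In H520 no member passed the test either, and again no tag of the pool did in the same fit. edgeR called 0 of the 1570 members and 0% of 223998 tags. An unadjusted p under 0.05 was found for 60 members (3.82%), against 4.71% of all tags. Of these, 18 were higher with BaP, where 2.36% of all tags were, and 42 were lower, where 2.35% were. DESeq2 called 0 of the 207 members left by its own filter and 0.0476% of all tags it adjusted, with 58 of the 1570 members and 4.84% of all tags at an unadjusted p under 0.05. With the transfection number as a block, edgeR called 0 members, where 0.0384% of all tags were higher and 0.0286% lower. The median log2 fold change was -0.01, with 90% of members between -0.14 and 0.13 and a median standard error of 0.07. The mean activity of the members was 0.19 ± 0.03 with BaP and 0.20 ± 0.03 with DMSO (SD, n = 5 each).

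The smallest p in H520 belonged to ggtcgcgtatggggc, a steady member with a of 2.76. It had 2.07, 3.01, 2.99, 2.54 and 2.48 TPM with BaP and 3.95, 2.77, 2.78, 3.29 and 3.67 TPM with DMSO in H520, against 3.14 TPM in the H520 input. BaP 2 and BaP 3 lay inside the DMSO range. The log2 fold change was -0.33 (standard error 0.10, unadjusted p = 0.00225, adjusted p = 0.998 by edgeR). In A549 the same tag had 20.6 ± 4.73 TPM with BaP and 21.2 ± 2.38 TPM with DMSO (SD, n = 5 each).

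The lines were then compared in their response to BaP, with the limit that A549 had 18 h of exposure and H520 had 42 h, so line and time cannot be told apart. The interaction in edgeR called 0 of the 1570 members and 0% of 225212 tags. At an unadjusted p under 0.05 there were 12 members (0.764%), against 3.46% of all tags. Of these, 6 had the higher response in A549, where 1.65% of all tags did, and 6 the lower, where 1.81% did. DESeq2 called 0 members and 0% of all tags, with 16 members and 3.71% of all tags at an unadjusted p under 0.05. The smallest p was that of ccaagattaaccggc. It had 1.89 ± 0.18 TPM in A549 with BaP, 2.0045 ± 0.32 TPM in A549 with DMSO, 0.895 ± 0.066 TPM in H520 with BaP and 0.685 ± 0.078 TPM in H520 with DMSO (SD, n = 5 each). The response in A549 minus that in H520 was -0.46 on the log2 scale (unadjusted p = 0.00555, adjusted p = 1 by edgeR).

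The 8 members whose 15 bases hold GCGTG gave no call in any of the 3 tests. In A549 their log2 fold changes had a median of 0.19 with 7 of 8 positive, which became -0.05 with 1 of 8 positive without BaP 5. Of the 8, 7 were variable members. In H520 the median was 0.00 with 4 of 8 positive, and 2 had an unadjusted p under 0.05, as did 4.71% of all tags.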

How the data were processed

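Per the labels' protocols, polyadenylated RNA of transfected cells was copied into cDNA, and a short stretch with the 12-base tag was amplified and sequenced. Plasmid DNA gave the inputs. The submitters' processing notes name bcl2fastq. The tool that matched reads to tags was not given in the sources used. Deposited files hold, per the file headers, a raw read count per tag, the library total and TPM. Recomputed in every file, the deposited TPM were the count over the library total on a fixed scale. A tag that a file does not list was set to 0.

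The members, lists and tests were chosen with earlier results of these data known. BaP was compared with DMSO on the counts of all tags with edgeR 4.0.16 (TMM, filterByExpr, robust quasi-likelihood test, Benjamini-Hochberg adjustment, threshold 0.05), within each line, and as a line by treatment interaction over 20 libraries. Standard errors are the log2 fold change over the square root of the F statistic. DESeq2 1.42.0, other size factors, no count filter, the transfection number as a block, and leaving out each library were the alternatives for these tests. The membership rule was repeated with other pseudocounts, inputs, read minimums and treatments. Named tags were those with the largest a minus h, nearest to the medians, at the limits, with extreme spread or input ratio at 500 or more input reads, with the smallest p, and in pairs at 1 mismatch. The tests were checked on simulated counts drawn for each tag apart. That check did not cover shifts that many tags share within a library, as in the variable members. The labels do not tie transfections to separate cultures, so p-values measure the spread between these libraries.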

Additional observations from a re-analysis of the deposited data

Results flagged for a closer look

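Groups of 5 libraries were searched for a library far from the other 4, over the mean levels of the member sets and the TPM of the named tags. Of 136 groups searched, 3 held such a library, and by chance about 1 group in 20 does. Tag S1 (tagacgagaggtggc) had 10.3 TPM in A549 DMSO transfection 4, where the other DMSO libraries had 2.89 to 5.03 TPM. The other 2 were tags just outside the limits of the rule. In H520 DMSO transfection 1, agatactaaataggc had 4.91 TPM, where the others had 3.94 to 4.20 TPM, and aacttgcgtaaaggc had 2.41 TPM, where the others had 1.47 to 1.65 TPM. No mean level of a member set was marked.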

How the results depend on the processing

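With all libraries kept, each main value was set against its value in each alternative setting. Of these comparisons, 94 stayed within 1.5 times for a count, or within 1 SD between libraries for a level, and 8 did not. Many of the 94 set 0 calls against 0 calls. The number of members was 1570 and ran from 1206 without centring to 2194 with a pseudocount of 0.1 TPM, and from 1515 to 1620 on leaving out a library. The median h of members, 0.13, was 0.0313 with the mean of both inputs and 0.0443 without centring. Calls of BaP over DMSO in A549 and of the interaction were 0 in every fit run, and no fit called a member in H520. Over all tags in H520, edgeR called 0, but 1 higher and 1 lower without the count filter, and DESeq2 called 5 higher and 5 lower over the 20994 tags it adjusted. The cause of these changes was not tested. The main fits did not treat same-numbered libraries as pairs, and whether they are pairs was not settled. The deviations of same-numbered libraries correlated over 0.1 in 3 of 5 pairs in A549 (-0.02 to 0.49). In H520 they did so in 1 of 5 pairs (0.04 to 0.16). A library correlated best with the one of its own number in 5 of 10 cases in A549 and 9 of 10 in H520, which is a hint from the data and not the design. With the number as a replicate block, 86 tags were higher and 64 lower with BaP in H520, none of them members, and 0 in A549. In A549 the block moved the members at an unadjusted p under 0.05 from 8 to 53 (3.38%, against 3.99% of all tags), of which 48 were steady (9.92% of the 484), 5 of these higher and 43 lower with BaP. The fold of a tag with few input reads is the least certain: the lowest input count of a member was 103.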
